A study of Homo sapiens with 4 samples.

Results

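The 6 genes described here are the core transcription factors of the epithelial-mesenchymal transition (EMT): ZEB1 and ZEB2, SNAI1 and SNAI2, and TWIST1 and TWIST2. They were taken by symbol, through the Ensembl identifiers of 2 lists of sites from RNA immunoprecipitation sequencing of PARP1, out of 20912 gene identifiers that the lists name. Together the 6 genes hold 79 listed sites (29 in IP 1 and 50 in IP 2) of 166248 and 229782 in all. The samples are HK-2 cells, an immortalised human cell line from proximal tubule epithelium, with 2 PARP1 immunoprecipitations (IP 1 and IP 2, pulled down with a monoclonal Flag antibody) and 2 inputs. All carry the same label otherwise, no treatment is named, and the labels do not state whether the cells held a Flag-tagged copy of PARP1. The values of the inputs were not analysed here and there is no control IP, so a site shows RNA recovered in a PARP1 IP and not enrichment. Separate cultures are not stated for IP 1 and IP 2, and their differences may be technical.

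EMT is the programme by which epithelial cells loosen their junctions and take up mesenchymal traits. In the kidney it is studied in injured tubules, where a partial form accompanies fibrosis. The 3 families act mainly as repressors that bind E-box motifs in epithelial genes such as CDH1 (E-cadherin): ZEB proteins through 2 clusters of zinc fingers, SNAI proteins through C-terminal zinc fingers after an N-terminal SNAG motif, and TWIST proteins as basic helix-loop-helix dimers. PARP1, an enzyme of the nucleus best known from DNA repair, builds chains of ADP-ribose on target proteins and can also bind RNA.

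A site in the lists is 1 base on 1 strand at which at least 2 sequenced tags carry a mutation (a substitution, deletion or insertion), with the number of tags over the base, the number mutated and the authors' false discovery rate (FDR). A sense site lies on the strand of the gene it is given to, and a gene is called named in an IP when that list gives it any site. Over the whole lists the median site had 2 tags, both mutated, 82.7% of sites in IP 1 and 83.3% in IP 2 were of that kind, with 419675 and 572870 tags in total. IP 2 holds 1.38 times as many sites as IP 1, or 58.0% of both. Of epithelial and proximal tubule markers, 8 of 11 were named in both IPs (mean over genes of like span 66.8%), and AQP1 and ANPEP in neither. Of other cell types, both IPs named 3 of 5 endothelial (80.8%), 2 of 5 fibroblast (63.3%) and 0 of 5 leukocyte markers (33.9%). The epithelial count is near the share of genes of like span, the other lists are short, and a site does not measure expression, so these counts do not settle the cell label.

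ZEB1, ZEB2, SNAI1 and TWIST2 were named in both IPs, and SNAI2 and TWIST1 in neither. That is 4 of 6, set against 55.4% of 19951 protein-coding genes, so the count is near the background. Each IP alone named the same 4, where IP 1 named 61.5% and IP 2 65.6% of protein-coding genes, and 28.2% were named in neither. By sense sites alone the 4 were again named in both (background 50.7%), and by exon sites alone only ZEB1 was (background 14.6%). Below the most common FDR of each list, ZEB1 and ZEB2 were left (background 34.0%). Being named went with gene length, and the members differ widely in it: ZEB1 spans 211 kb, ZEB2 160 kb, TWIST1 96.7 kb and TWIST2 62.5 kb. Of genes of like span (the same 1 of 10 equal bins of protein-coding genes by span), 92.2% were named in both IPs for the ZEB genes, 80.1% for TWIST2 and 84.4% for TWIST1. For SNAI1 and SNAI2, which span 5.89 kb and 4.14 kb, it was 17.9%. SNAI1 is therefore named where most genes of its length are not. For TWIST1 the reading depends on the transcript: its span of 96.7 kb comes from 1 long transcript, and by its principal transcript of 2205 bases it falls among the shortest genes, of which 5.61% were named in both IPs and 80.9% had no site.

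**Figure D1:**
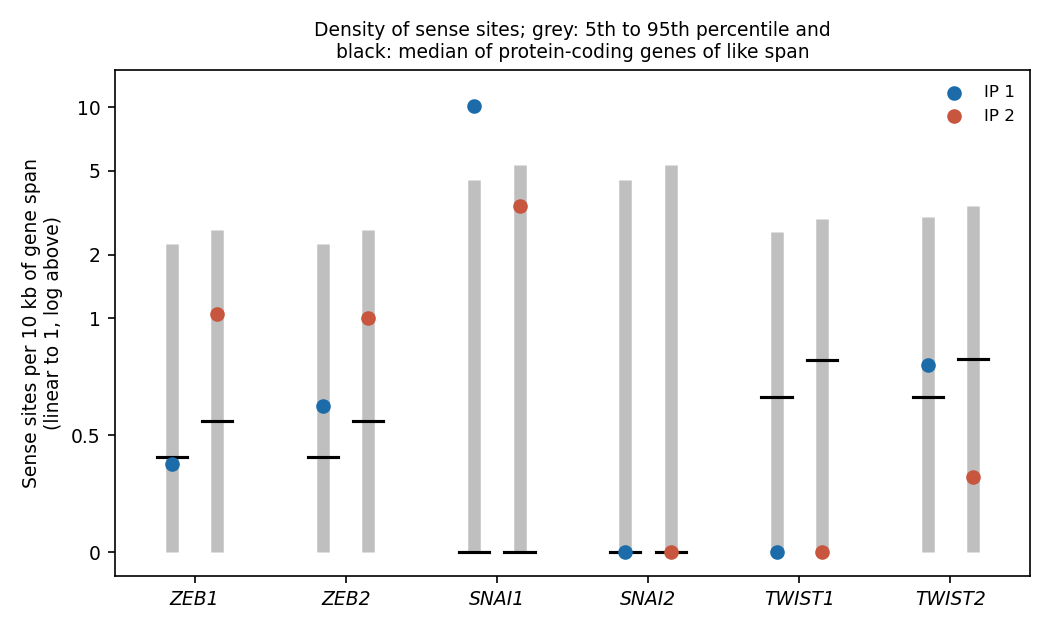
Sense sites per 10 kb of annotated gene span for each of the 6 genes in IP 1 (blue) and IP 2 (red), over the median (black) and the 5th to 95th percentile (grey) of protein-coding genes of like span, on an axis that is linear to 1 and logarithmic above. SNAI1 stands at 10.2 in IP 1, above the grey range, and at 3.40 in IP 2, within it. ZEB1, ZEB2 and TWIST2 lie within the grey range in both IPs, and SNAI2 and TWIST1 at 0.

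No base was listed in both IPs in any of the 6 genes. With 0 of 29 sites of IP 1 and 0 of 50 of IP 2 found in the other list, a count of 0 allows a share of up to 10.3% and 6.00%. Over the whole lists, 4.17% of the sites of IP 1 and 3.02% of IP 2 recurred, and both rates lie below these limits, so the count of 0 does not set the 6 genes apart from the rest. A shared base was found in 14.1% of all protein-coding genes and in 41.6% of those with sense sites in both IPs and 20 to 40 of them in all, the range that holds ZEB1 and ZEB2. In the range from 5 to 10, which holds SNAI1 and TWIST2, it was 12.3%. The closest sites of opposite IPs on the same strand were 93 bases apart in ZEB2, 303 in SNAI1, 330 in ZEB1 and 29860 in TWIST2.

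ZEB1 (ENSG00000148516.21, chromosome 10, 31318495 to 31529814, plus strand, GRCh38) carried 8 sense sites from IP 1 and 22 from IP 2. This zinc-finger homeobox protein represses CDH1 and the miR-200 family, which in turn targets its message. The density was 0.379 sites per 10 kb in IP 1 and 1.04 in IP 2, which is the percentile 49.0 and 66.7 of genes of like span. IP 2 held 73.3% of the 30 sense sites (95% exact binomial interval 54.1 to 87.7), and that interval takes in the 58.0% of the whole lists. Sense sites of all protein-coding genes numbered 103909 in IP 1 and 125338 in IP 2, a smaller excess than in the whole lists. The interval takes each site as independent, although neighbouring sites can come from the same tags, so it is too narrow. The cause of the higher number in IP 2 was not tested.

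The sites of ZEB1 were nearly all listed as intronic: 7 of 8 in IP 1 and 21 of 22 in IP 2. Over all protein-coding genes, only 9.36% of sense sites in IP 1 and 8.77% in IP 2 were exonic. Such placement is therefore the common one and does not set ZEB1 apart. Intron 1 of transcript ZEB1-201 is 141.7 kb long and makes up 69.3% of its intron sequence. It held 5 of the intronic sites of ZEB1 in IP 1 and 20 in IP 2. Pooled, this is 25 of 28, or 89.3% (interval 71.8 to 97.7). The interval pools the IPs and takes each site as independent, although several sites of IP 2 are adjacent. It is therefore too narrow to tell this share from the share of intron length. The 25 sites lay between 13.8 and 109 kb from the 5′ end, and intron 2 held the 2 other intronic sites of IP 1. The exonic sites differed between the IPs. IP 1 had 1 in the 3′ untranslated region (UTR) at base 31529352, which only the longer ends of ZEB1-202, ZEB1-204 and ZEB1-205 contain. IP 2 had 1 in the coding sequence. Each had 2 tags, both mutated, the minimum the lists hold.

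In IP 2, deletions made up 12 of the 22 sense sites of ZEB1 (54.5%, interval 32.2 to 75.6), against 26.5% of sense sites in all protein-coding genes. In IP 1 they made up 2 of 8 (25.0%, interval 3.19 to 65.1), against 25.7%. Of the 12 deletions, 7 lie in 3 runs of adjacent bases (31377239 to 31377241, 31399317 to 31399318 and 31408405 to 31408406), and the tags of a run may be the same tags. Counted as runs the 12 are 8, so the interval, which takes each site as independent, is too narrow. Merging sites within 50 bases leaves 8 separate places in IP 1 and 17 in IP 2. The antisense gene ZEB1-AS1, which overlaps the start of ZEB1 on the other strand, had 0 sites in IP 1 and 3 in IP 2.

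ZEB2 (ENSG00000169554.19, chromosome 2, 144364364 to 144524583, minus strand) carried 10 sense sites from IP 1 and 16 from IP 2. It is the paralogue of ZEB1, also known as SIP1, a SMAD-interacting repressor. Its density was 0.624 and 0.999 sites per 10 kb, at percentiles 58.9 and 65.3 for its span, and IP 2 held 61.5% of the sites (interval 40.6 to 79.8). ZEB2 was thus close to the middle of genes of its length in both IPs. As is common for sense sites of protein-coding genes, all 10 sites of IP 1 and 15 of 16 of IP 2 were intronic. Intron 2 of ZEB2-227 (87.3 kb, 68.8% of intron sequence) held 8 and 12 of them, together 20 of 25 or 80.0% (interval 59.3 to 93.2), and intron 4 held 2 and 2.

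The best supported intronic sites of the 6 genes were in ZEB2, all substitutions in intron 2 and all in IP 2. At base 144449662, 4 of 4 tags were mutated, at 144473953 it was 3 of 3 and at 144465024 it was 3 of 5. Of all intronic sites in IP 2, 10.5% had 3 or more mutated tags and 5.25% had 4 or more. The first of these sites lies in a stretch where a further site of IP 2 (144449545) and 1 of IP 1 (144449452) were listed, the closest approach of the IPs in any member. That stretch is also covered, on the opposite strand, by the annotated antisense gene AC009951.2. ZEB2-AS1, an antisense transcript over the 5′ end of ZEB2 that is known to affect its splicing, had 1 exonic insertion site in IP 1 (144518188, 2 of 2 tags) and none in IP 2. IP 2 listed 2 further sites antisense to ZEB2 and 1 antisense to ZEB1.

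**Figure D2:**
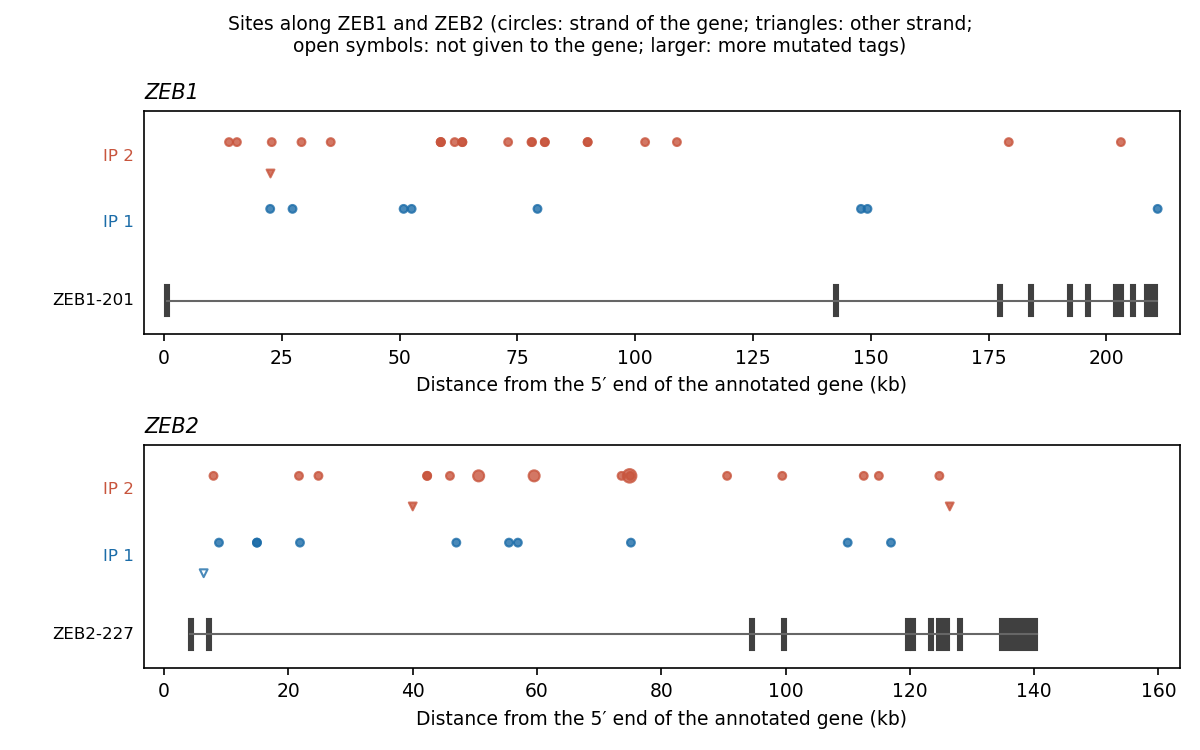
Sites along ZEB1 and ZEB2, by distance from the 5′ end of the annotated gene (kb), for IP 1 (blue) and IP 2 (red), over the exons (boxes, widened to be visible) of a principal transcript. Circles are on the strand of the gene, triangles on the other strand, open symbols were not given to the gene, and size follows mutated tags: 25 of 28 intronic sites of ZEB1 lie in intron 1 and 20 of 25 of ZEB2 in intron 2.

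By the rule for likeness (intron and exon sense sites in both IPs, 1199 protein-coding genes of similar span), the genes most like ZEB2 were NT5DC1, WDR25 and SFI1, at distances of 0.162, 0.203 and 0.403 on the square-root scale. NT5DC1 had 9 and 15 intronic sites and WDR25 11 and 14. This compares only 4 values over 2 IPs. ZEB1, with 8 sense sites in IP 1, was below the minimum of 10 for that comparison.

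SNAI1 (ENSG00000124216.3, chromosome 20, 49982999 to 49988886, plus strand), which encodes Snail, carried 6 sense sites from IP 1 and 2 from IP 2. At 10.2 and 3.40 sites per 10 kb it had the highest density of the 6 genes in both IPs. Its percentiles among genes of 3.53 to 7.36 kb were 99.2 and 90.2, where the median gene has 0 sites in either IP. IP 2 held 25.0% of the 8 sites (interval 3.19 to 65.1), an interval that includes 58.0%. Because 1 site more or less moves a short gene far, and neighbouring sites can come from the same tags, these ranks rest on few observations. Merged within 50 bases, SNAI1 had 4 separate places in IP 1 and 1 in IP 2.

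IP 1 placed 3 of its 6 SNAI1 sites in exons. Of these, 2 were substitutions in the 5′ UTR, at bases 49983012 and 49983024, each with 2 of 2 tags. The third was in the coding sequence of exon 2 at base 49984272, where 4 of 6 tags were mutated. It is the best supported site of the 6 genes in IP 1, and 7.26% of coding sites in that list had 4 or more mutated tags. Intron 2, 3.52 kb long, held the other 3 sites of IP 1 (a run of 2 deletions at 49985463 to 49985464 and a substitution at 49987739) and both sites of IP 2 (49987403 and 49987436). None of the exonic sites of SNAI1 was in IP 2.

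The coding sites of the 6 genes number 3, 1 each in ZEB1, ZEB2 and SNAI1, and each was found in 1 IP only. Their sequences show where in the message the mutated bases would lie. An exonic base can be read from spliced or unspliced RNA, and the lists do not tell these apart. Each sequence is 30 bases of the message 5′ to 3′, cut from the GENCODE release 29 transcript, with the mutated base in capitals. The lists do not give the base that replaced it.
ZEB1, exon 7, chr10:31521538-31521567, plus strand: cttgatctttcactaCcaaagcaacaggga
ZEB2, exon 8, chr2:144399818-144399847, minus strand: tacttgggtttcccaCcatgaatagtaatt
SNAI1, exon 2, chr20:49984257-49984286, plus strand: catccgaagccacacGctgccctgcgtctg
In ZEB1 the base is the first of codon 740 of 1124, in ZEB2 the second of codon 452 of 1214, and in SNAI1 the third of codon 177 of 264. In both ZEB genes it lies in the large central exon, which holds 53.7% of the coding bases of ZEB1 and 54.1% of ZEB2. The tags mutated were 2 of 2 in ZEB1, 2 of 2 in ZEB2 and 4 of 6 in SNAI1. The nearest exon edge was 383, 438 and 79 bases away.

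SNAI2 (ENSG00000019549.11, chromosome 8, 48917604 to 48921740, minus strand), which encodes Slug, had no site on either strand in either IP, given to it or not. Of protein-coding genes of like span, 57.5% likewise had no site in either IP, so its absence is the commoner outcome for a gene of that length. The third family member, SNAI3, carried 2 sense sites, both from IP 1.

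TWIST2 (ENSG00000233608.3, chromosome 2, 238848032 to 238910543, plus strand) carried 5 sense sites from IP 1 and 2 from IP 2, at 0.800 and 0.320 sites per 10 kb. The percentiles for its span were 54.3 and 31.8, and IP 2 held 28.6% of the sites (interval 3.67 to 71.0). All 7 were in the single intron of TWIST2-202, and none in the coding exon. In IP 1, 4 of the 5 lie within 27 bases near the 3′ end of that intron, an insertion at 238908862 and a run of deletions at 238908886 to 238908888, and the fifth is at 238900402. The 2 sites of IP 2, at 238870539 and 238870542, are 3 bases apart. TWIST2 therefore has 2 separate places in IP 1 and 1 in IP 2, and those of the IPs are 29860 bases apart.

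On the strand opposite to TWIST2, IP 2 listed 5 sites and IP 1 none. An antisense site was given to 3 of the 6 genes in IP 2 (ZEB1, ZEB2 and TWIST2), against 36.3% of protein-coding genes, and to 0 of 6 in IP 1, against 27.3%. Those shares are not matched for span. For the ZEB genes, the median of genes of like span was 2 antisense sites in IP 1 and 3 in IP 2. Of those genes, 72.8% had more antisense sites than ZEB1 in IP 2, and 59.9% had more than ZEB2. In TWIST2 the 5 antisense sites made up 71.4% of its 7 sites in IP 2 (interval 29.04 to 96.3). The interval takes each site as independent, so it is too narrow. Of the sites given to protein-coding genes, 15.2% in IP 2 were antisense and 11.1% in IP 1. Among genes of a span like that of TWIST2, 3.46% had more antisense sites in IP 2, and the median was 1. Of the 5, 2 lie 40 bases apart (238892734 and 238892774), and each of the 5 had 2 of 2 tags. How the libraries kept strand is not stated in the labels.

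TWIST1 (ENSG00000122691.12, chromosome 7, 19020991 to 19117672, minus strand) was given no site, although its annotated span of 96.7 kb held 14 sites on its strand, 2 in IP 1 and 12 in IP 2. All 14 are listed as intergenic with no gene, and each had 2 of 2 tags. None of the other 5 genes had such a site on its strand. The span comes from TWIST1-203, a transcript of the nonsense-mediated decay class with weak annotation support that runs far past the coding gene. The principal transcript TWIST1-201 covers 2205 bases (19115468 to 19117672) and held 0 of the 14, the nearest being 8.68 kb beyond its 3′ end. Intron 2 of TWIST1-203 held 8 of the sites and intron 3 held 6. They lie in the TWIST1 region but outside its principal transcript, and which RNA they come from was not tested.

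IP 2 held 85.7% of the 14 sites of that region (interval 57.2 to 98.2), against 63.4% of all sites given to no gene. The sites of IP 1, at 19063498 and 19063555, lie 57 bases apart, and the nearest of IP 2 is 808 bases away. On the same strand, the next 96.7 kb beyond the 3′ end, within the HDAC9 locus, held 2 sites in IP 1 and 4 in IP 2, all listed as antisense to HDAC9. The 96.7 kb before the 5′ end held 0 and 1. Per 10 kb the TWIST1 span held 0.207 and 1.24 sites, and the median of genes of like span was 0.661 and 0.822 sense sites.

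**Figure D3:**
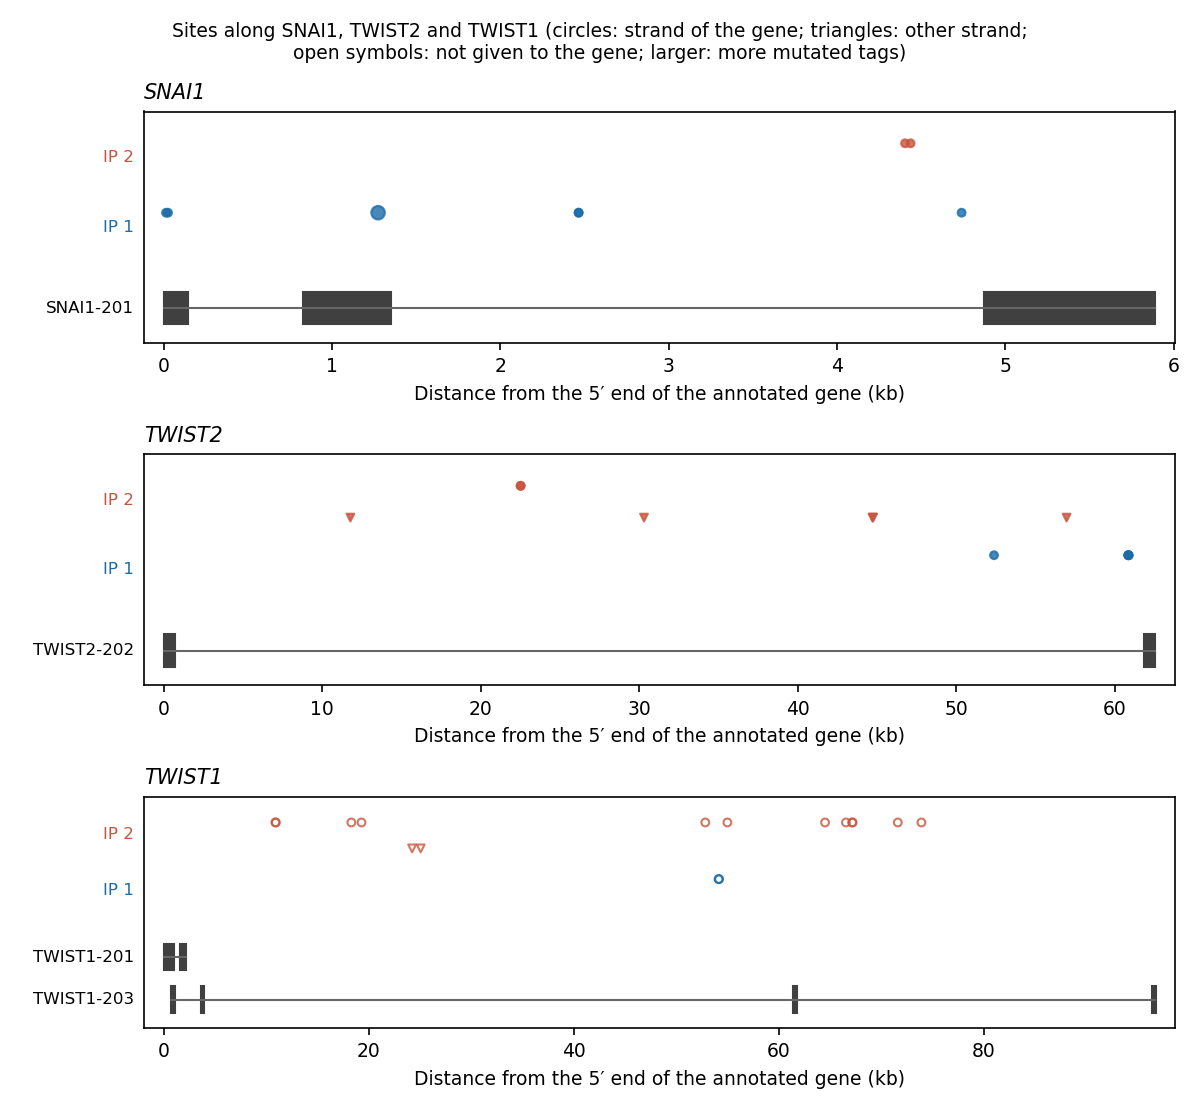
Sites along SNAI1, TWIST2 and TWIST1 by distance from the 5′ end of the annotated gene (kb), drawn as circles on the strand of the gene and triangles on the other strand, with larger symbols for more mutated tags. The open symbols at TWIST1 are given to no gene, and those on its strand all lie outside TWIST1-201 and inside the introns of TWIST1-203.

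The genes these factors work with and act on were then counted in 7 lists (111 genes). Of the 101 protein-coding ones, 68 were named in both IPs (67.3%), against 55.4% of all protein-coding genes and a mean of 59.4% over genes of their spans. Their median of sense sites was 2 in IP 1 and 1 in IP 2, and that of all protein-coding genes 1 and 1. The lists were chosen with earlier results of these data known and received no test.

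Among partners and corepressors, both IPs named 16 of 18, with a mean of 67.2% over genes of their spans. CTBP2, a corepressor that ZEB proteins recruit, carried 65 and 73 sense sites in the 2 IPs, at percentiles 99.5 and 99.7 for its span. TCF12, a helix-loop-helix partner of TWIST, had 42 and 70 (percentiles 75.2 and 85.4). RCOR1, the CoREST scaffold that SNAI1 reaches through the demethylase KDM1A, had 39 and 34 (96.1 and 90.2). ID1 and ID3, small inhibitors of helix-loop-helix dimers, had no site. Of the 18 genes 7 had a base listed in both IPs, among them CTBP1, CTBP2, TCF12 and RCOR1. The share was 14.1% of all protein-coding genes and 41.6% of those with 20 to 40 sense sites. CTBP1, CTBP2, TCF12 and RCOR1 had 46, 138, 112 and 73 sense sites over both IPs, above that range. Since a shared base was commoner in genes with more sites, neither share is a matched background for them.

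Among regulators of protein stability, both IPs named 16 of 17 (mean over like spans 73.5%). GSK3B, the kinase that marks Snail for degradation, had 37 and 53 sense sites, the ubiquitin ligase subunit BTRC that then binds it had 16 and 40, and the kinase subunit CSNK2A1 had 25 and 27. The percentiles were 81.2 and 87.1, 64.4 and 87.5, and 97.4 and 96.9. USP51 was the 1 gene with no site.

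Of the epithelial genes that the factors repress, both IPs named 13 of 23 (56.5%), with a mean of 55.0% over genes of their spans. Below the most common FDR it was 4 of 23, against 34.0% of protein-coding genes, a share not matched for span. CDH1 had 4 and 9 sense sites (percentiles 39.2 and 53.5), the polarity gene PATJ 60 and 58 (81.6 and 74.5) and the splicing regulator ESRP1 10 and 4 (75.2 and 42.7). The junction genes OCLN, CLDN7 and TJP1 had none. Of the mesenchymal genes both IPs named 13 of 18 (mean over like spans 58.8%), and 7 below the most common FDR. CDH2, the N-cadherin gene, had 30 and 30 sense sites, FN1 20 and 18, and TGFBI, an induced matrix protein, 14 and 14. S100A4, TAGLN and COL1A2 had none.

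The factors that oppose EMT and the further mesenchymal factors had 5 of 12 and 5 of 13 genes named in both IPs, with means of 54.4% and 43.0% over like spans. Below the most common FDR each list had 2, against 34.0% of protein-coding genes. IP 1 alone named 8 genes of each, against 61.5% of protein-coding genes. IP 2 alone named 7 and 6, against 65.6%. These shares of all protein-coding genes are not matched for span. The median span was 31.3 kb and 11.0 kb in the 2 lists, and 27.1 kb in all protein-coding genes. GRHL2 had 3 and 1 sense sites, ELF3 2 and 1, and GRHL1 1 and 2, and OVOL1 and FOXA2 had none. TCF4, another helix-loop-helix partner, had 6 and 13 over 442 kb (percentiles 33.0 and 37.8), LEF1 5 and 4, and YBX1 2 and 4, while FOXC2, GSC and SOX9 had none. No gene of these 2 lists had a base in both IPs. Of 10 noncoding genes 5 were named in both, against 9.12% of 23006 noncoding genes. That background pools all classes, short microRNA, snoRNA and snRNA genes included, and is not matched for span. The listed genes had a median span of 10.7 kb, so these shares cannot be compared directly. LINC00963 had 6 and 11 sense sites, SNAI3-AS1 4 and 4, and MALAT1 3 and 3, and MIR200CHG, the host gene of miR-200c, and H19 had none.

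**Figure D4:**
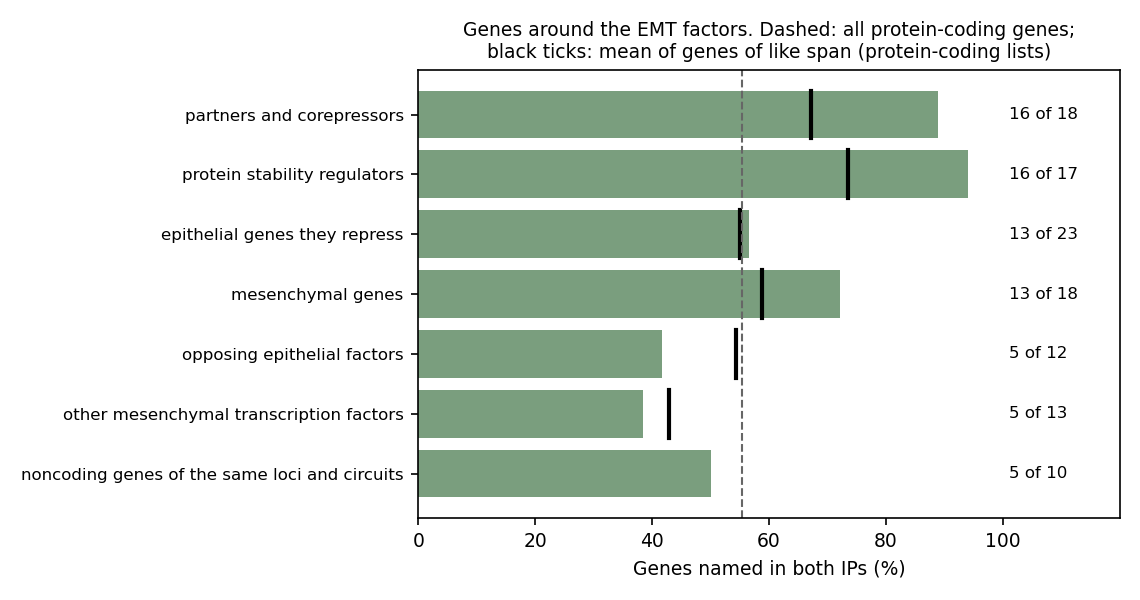
Share of genes named in both IPs (bars, %, with the count at the right) for the 7 lists of genes around the EMT factors, with the share of all protein-coding genes (dashed line, 55.4%) and the mean over genes of like span (black ticks, protein-coding lists). Partners and corepressors (16 of 18) and stability regulators (16 of 17) lie to the right of their ticks, and the 2 lists of other transcription factors to the left.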

How the data were processed

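The 2 lists of sites, 1 for each PARP1 IP from HK-2 cells, were analysed. The submitters' processing notes name bcl2fastq, TopHat2 and GRCh38. For versions, site caller, thresholds and duplicate removal the entry is: not given in the sources used here. As deposited, the values are counts of tags and of mutated tags per site, a score equal to the mutated tags, and an FDR, per the file headers. In each list 1 further column, not a value of a sample, was not used. Only sites with 2 or more mutated tags are listed, so unmutated RNA leaves no site. Because duplicate removal is not given, tags need not be independent molecules, and intervals cover counting error only.

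Lists name their file's IP by number, and each was matched to the IP of that title. Genes, spans and transcripts came from GENCODE release 29 (GRCh38). Of 20912 identifiers, 20704 were found there by number, 84.4% of them with the same version (ZEB2 has another), so the authors' gene models can differ. The reference transcript was the principal one with the longest span. Percentiles rank the density of sense sites (per 10 kb) within 10 bins of protein-coding genes by span, with ties counted as 0.5. Intervals are exact (Clopper-Pearson, 95%), and a count of 0 allows up to 3 counts. Python 3.11.15 and scipy 1.17.1 were used, and the percentile code was tested on simulated data. The members and lists were chosen with earlier results of these data known. All 6 members are described. Of each list the rule took the 3 genes with the most sense sites and up to 3 with none; CTBP1, SNAI3, ZEB1-AS1, ZEB2-AS1 and AC009951.2 were named in addition after their values were seen. Only the IPs were analysed, so no groups were compared.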

Additional observations from a re-analysis of the deposited data

How the results depend on the processing

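No paired analysis was possible because the lists analysed hold values of the PARP1 IPs only, with no column of an input to pair them with. The count of 4 members named in both IPs held with sense sites only, and each IP alone named 4 members. It was 2 (ZEB1 and ZEB2) with only sites below the most common FDR of each list, which removes substitutions with 2 of 2 tags, and 1 (ZEB1) with exon sites only. The absence of shared bases held on either strand, within 10 bases and below the most common FDR, at 0 each time. The 14 same-strand sites in the spans of the 6 genes that were not given to them, all at TWIST1, ranged from 2 to 12 with 1 IP left out and were 0 within the principal transcripts (an alternative chosen after seeing the data). They were 14 with spans extended by 5 kb and 17 on either strand, of which 16 at TWIST1 and 1 given to ZEB2-AS1. Of 111 pathway genes, 73 were named in both IPs, 46 below the most common FDR and 67 with sense sites only. Leaving out 1 IP gave 81 to 83. With at least 3 tags required, sense sites fell to 0 in IP 1 and 5 in IP 2 for ZEB1, 2 and 5 for ZEB2, 1 and 0 for SNAI1, and 0 and 0 for TWIST2, so most values here rest on sites at the minimum depth. Ranked by exon sites per kb of exon among all protein-coding genes, the mean percentile of SNAI1 over the IPs was 68.1 rather than 94.7, that of ZEB1 76.8 rather than 57.9, and that of TWIST1 36.8 rather than 7.58. The 36.8 is the rank of genes tied at 0 exon sites, and SNAI2 and TWIST2 have it too. The value of SNAI1 averages 3 exon sites in IP 1 with 0 in IP 2.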
